A study of Mus musculus with 6 samples.

Results

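The genes described here are those of the major histocompatibility complex (MHC) class II pathway in splenic natural killer (NK) cells, with the costimulatory gene Cd86. They were chosen by symbol, as 9 of the 50686 genes in the deposited count table: Cd74, H2-Aa, H2-Ab1, H2-Eb1, H2-DMa, H2-DMb1, H2-DMb2, Ciita and Cd86. The RNA came from C57BL/6J mice. In the Eumyc group (3 libraries) the mice had been given Eumyc lymphoma, which is a Myc-driven tumour of B cells, into a vein, and spleens were taken on day 14. The WT group (3 libraries) came from healthy mice labelled wild type. Before the sort, B cells were removed in both groups with an antibody and beads. Cells bound by CD49b beads were then sorted as NK1.1 positive and T cell receptor beta negative, but the Eumyc sort also received the cells that the beads had left unbound. That step and the lymphoma cannot be told apart in any comparison below. The labels gave neither ages nor the animals behind each library. The p-values therefore measure the spread between these libraries, which may be technical. In bulk RNA a change in the number of cells of one type and a change in RNA per cell cannot be told apart.

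MHC class II molecules show peptides from ingested material to CD4+ T cells, and are made mainly by B cells, dendritic cells and macrophages. The alpha and beta chains assemble with the invariant chain, encoded by Cd74, which fills the groove until proteases trim it and the H2-DM chaperone exchanges the remnant for a peptide. Ciita encodes the coactivator that switches the whole group on, acting through factors that sit on X and Y boxes upstream of the class II genes. Mouse NK cells are not usually counted among class II expressing cells. CD86 is a separate surface protein of antigen-presenting cells that binds CD28 and CTLA-4 on T cells.

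Sequences upstream of the RefSeq start of 4 class II genes are shown because they hold stretches that resemble these boxes. They were taken from RefSeq promoter windows on GRCm38.p6, which matched 5 of the 9 genes by symbol, and run 5′ to 3′ on the gene's strand over the 130 bases before its RefSeq start. H2-Aa lies on the minus strand (chr17:34287824-34287953). H2-Eb1 (chr17:34305737-34305866), H2-DMb1 (chr17:34153061-34153190) and H2-DMb2 (chr17:34145119-34145248) lie on the plus strand. The deposited table starts H2-DMb2 at 34143307 and H2-DMb1 at 34153072. By those starts the H2-DMb2 sequence lies inside its gene, and the H2-DMb1 sequence almost wholly inside its own. Capitals mark 3 motifs that were spelled after the sequences had been read: an X-box stretch made of AAC, any 2 bases and ATGATG, the palindrome TGACGTCA of cAMP-responsive elements, and the Y-box stretch TGATTGG.
H2-Aa: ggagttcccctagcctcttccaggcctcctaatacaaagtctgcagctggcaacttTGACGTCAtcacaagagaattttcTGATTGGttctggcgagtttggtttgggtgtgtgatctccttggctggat
H2-Eb1: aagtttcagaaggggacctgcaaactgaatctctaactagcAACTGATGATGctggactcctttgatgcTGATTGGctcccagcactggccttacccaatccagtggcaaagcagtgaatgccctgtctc
H2-DMb1: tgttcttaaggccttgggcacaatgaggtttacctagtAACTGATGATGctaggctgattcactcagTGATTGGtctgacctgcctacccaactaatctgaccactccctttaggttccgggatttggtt
H2-DMb2: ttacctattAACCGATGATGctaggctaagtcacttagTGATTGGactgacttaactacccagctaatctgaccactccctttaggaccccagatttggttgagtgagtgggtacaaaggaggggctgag

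All 4 sequences hold the Y-box stretch, 16 to 18 bases after the end of the X-box stretch or, in H2-Aa, of the palindrome. Searched on both strands, the X-box stretch occurred in 0.137% of 32851 promoter windows of 300 bases, the palindrome in 1.79% and the Y-box stretch in 7.82%. The Y-box stretch together with either of the others occurred in 0.18% of windows. H2-Ob, which encodes a chain of the H2-DM inhibitor H2-O, has the X-box and Y-box stretches 15 bases apart in its own window. The windows of H2-Oa, the other H2-O chain, and of the class II gene H2-Eb2 hold the Y-box stretch alone. H2-DMa, the fifth gene with a match, has 2 windows, and neither holds any of the 3 motifs. Both lie well before the start that the deposited table gives for H2-DMa. These matches describe letters and are no evidence of binding.

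All 9 genes rose in the Eumyc libraries. The classical chain genes H2-Aa, H2-Ab1 and H2-Eb1 and the coactivator gene Ciita were 4.20-fold to 4.95-fold higher in mean level, and Cd74 was 3.53-fold higher. H2-DMa, H2-DMb1 and Cd86 rose less, by 1.66-fold to 1.92-fold, and the scarce H2-DMb2 was 3.89-fold higher. Levels are counts-per-million values (CPM) scaled by TMM, a factor that evens out library composition. Changes were tested with edgeR's quasi-likelihood test over 15458 genes, and a gene was called under a Benjamini-Hochberg adjusted p of 0.05. The 9 genes all passed the low-count filter and all were called higher, where 25.7% of all tested genes were called higher and 23.1% lower. Their median log2 fold change was 1.91, and that of all tested genes was -0.0050. In all 9 the lowest Eumyc library stood above the highest WT library, as it did in 31.3% of tested genes, while 60.2% had groups apart in either direction. Against a change of at least 1.5-fold, 5 of the 9 were called higher (Cd74, H2-Aa, H2-Ab1, H2-Eb1 and Ciita), and 8.15% of all genes were.

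**Figure D1:**
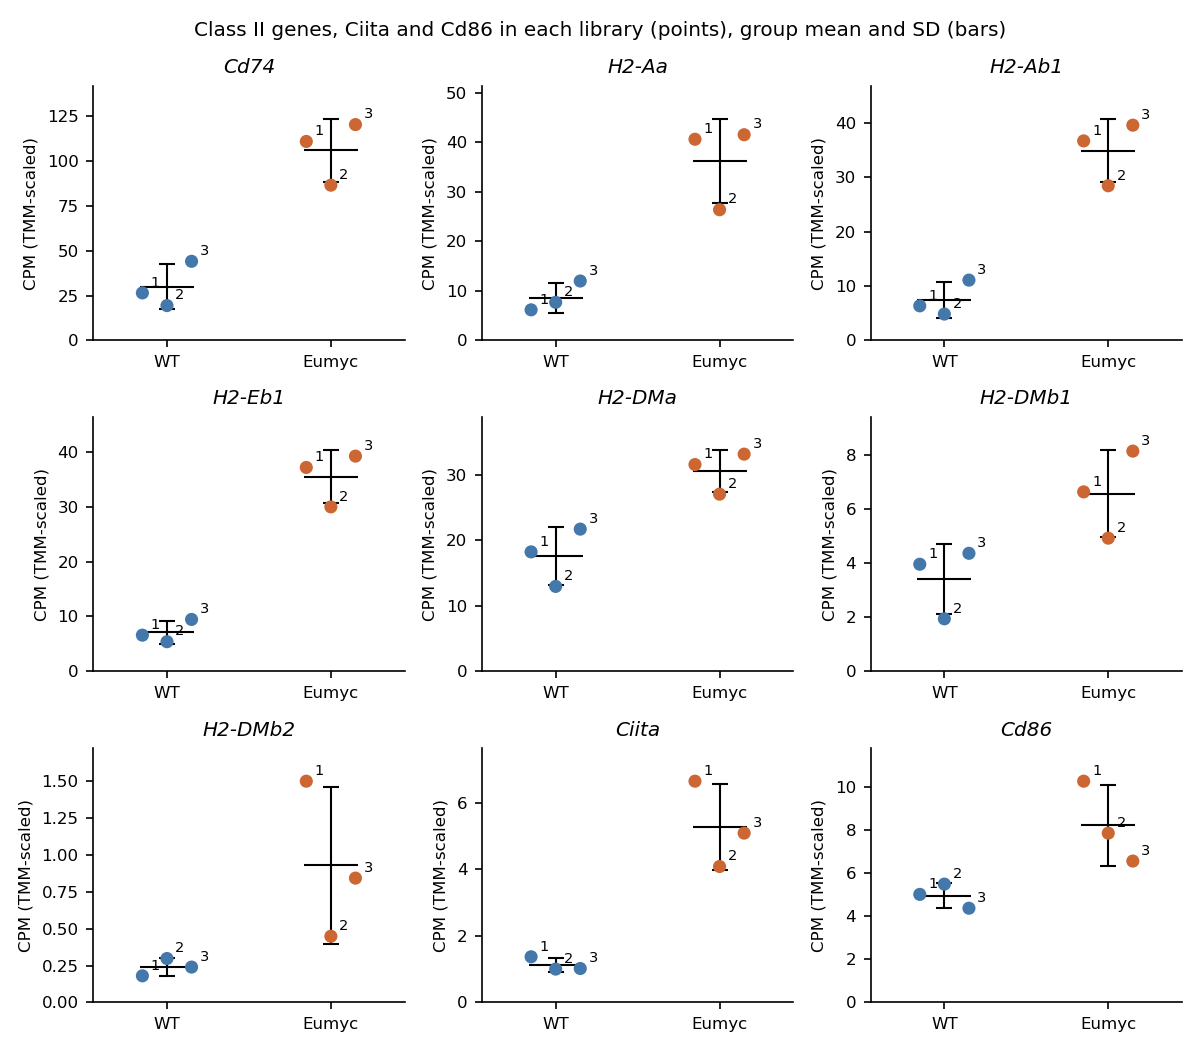
TMM-scaled CPM of each gene (vertical axes, each from 0) in the 3 WT (blue) and 3 Eumyc (orange) libraries, numbered by replicate, with the group mean and SD as black bars. All Eumyc points lie above all WT points of the same gene, most closely for H2-DMb1, H2-DMb2 and Cd86.

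Cd74 (ENSMUSG00000024610, chromosome 18, 60803848 to 60812646 on GRCm38) was the most abundant of the genes. It stood at 26.5, 19.4 and 44.1 CPM in WT 1, 2 and 3 and at 110.9, 86.5 and 120.3 CPM in Eumyc 1, 2 and 3. WT 3 was the highest WT library and Eumyc 2 the lowest Eumyc library, and the groups did not overlap. The log2 fold change was 1.84 ± 0.27 (SE, edgeR adjusted p = 0.000963).

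The alpha chain gene of the I-A molecule, H2-Aa (ENSMUSG00000036594, chromosome 17, 34282744 to 34287827), was at 6.17, 7.68 and 11.98 CPM in WT and 40.6, 26.4 and 41.5 CPM in Eumyc. It rose by 2.09 ± 0.26 on the log2 scale (adjusted p = 0.000518). Its partner, the beta chain gene H2-Ab1 (ENSMUSG00000073421, chromosome 17, 34263209 to 34269418), was at 6.35, 4.84 and 11.1 CPM in WT and 36.7, 28.4 and 39.5 CPM in Eumyc. Both chains of I-A were thus highest in WT 3 and lowest in Eumyc 2 within their groups. H2-Ab1 rose by 2.27 ± 0.28 (adjusted p = 0.000484).

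H2-Eb1 (ENSMUSG00000060586, chromosome 17, 34305877 to 34316199) encodes the beta chain of the I-E molecule. It was at 6.60, 5.41 and 9.46 CPM in WT and 37.1, 29.96 and 39.2 CPM in Eumyc, the tightest of the classical chains within Eumyc. Its log2 fold change, 2.34 ± 0.20 (adjusted p = 0.000182), was the highest of the 9. C57BL/6 mice lack a working gene for the I-E alpha chain and so make no I-E on the cell surface. The table's row for that gene, H2-Ea-ps, held 0 counts in all 6 libraries, which allows up to 0.0117 CPM over the libraries together (3 counts, counting error only).

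Ciita (ENSMUSG00000022504, chromosome 16, 10488178 to 10527564) was scarce in WT, with 38, 37 and 17 counts or 1.37, 1.00 and 1.02 CPM. In Eumyc it held 288, 264 and 338 counts, or 6.65, 4.08 and 5.09 CPM. Unlike Cd74 and the classical chains, it was highest in WT 1 among WT libraries and in Eumyc 1 among Eumyc libraries. It rose by 2.21 ± 0.25 (adjusted p = 0.000404). Gene-level counts do not separate the Ciita promoters used by dendritic cells, by B cells and after interferon-gamma.

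H2-DMa (ENSMUSG00000037649, chromosome 17, 34135182 to 34139101), the alpha chain of the peptide exchanger, was at 18.2, 13.0 and 21.7 CPM in WT. It was at 31.5, 27.0 and 33.1 CPM in Eumyc. Its WT and Eumyc values did not overlap, and it was highest in library 3 and lowest in library 2 of both groups. It rose by 0.81 ± 0.18 (adjusted p = 0.00611).

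H2-DMb1 (ENSMUSG00000079547, chromosome 17, 34153072 to 34160230) and H2-DMb2 (ENSMUSG00000037548, chromosome 17, 34143307 to 34151553) encode beta chains of the same exchanger. They are near-identical neighbours, and how reads common to both were counted is unknown, which leaves the value of each uncertain. H2-DMb1 was at 3.97, 1.95 and 4.37 CPM in WT and 6.65, 4.93 and 8.16 CPM in Eumyc, with WT 3 close under Eumyc 2. It rose by 0.97 ± 0.31 (edgeR adjusted p = 0.0317). The call was lost without WT 1 (0.0579), WT 2 (0.0715), Eumyc 1 (0.0618) or Eumyc 3 (0.107), and at equal depth (0.0591). H2-DMb2 held only 5, 11 and 4 counts in WT (0.180, 0.297 and 0.240 CPM) and 65, 29 and 56 in Eumyc (1.5, 0.449 and 0.843 CPM). It rose by 1.91 ± 0.55 (adjusted p = 0.0202), a call lost without WT 1 (0.0738) or Eumyc 1 (0.0679) and with limma-voom (0.0679).

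Cd86 (ENSMUSG00000022901, chromosome 16, 36603869 to 36666081) was at 5.01, 5.49 and 4.37 CPM in WT and 10.3, 7.86 and 6.56 CPM in Eumyc. The highest WT library, WT 2, stood close to the lowest Eumyc library, Eumyc 3. Cd86 rose by 0.72 ± 0.19 (adjusted p = 0.0149), the lowest log2 fold change of the 9. It was also alone among them in having its lowest Eumyc value in Eumyc 3.

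Per kilobase of annotated exon (GENCODE M21), which allows levels to be compared between genes, Cd74 led in both groups, at 17.9 ± 7.57 CPM per kb in WT and 63.1 ± 10.4 in Eumyc (SD, n = 3 each). In WT the next was H2-DMa at 5.11 ± 1.28 CPM per kb, then H2-Eb1 at 3.68 ± 1.07, H2-Ab1 at 2.89 ± 1.27 and H2-Aa at 2.27 ± 0.794. H2-DMb1 followed at 2.04 ± 0.773 and Cd86 at 1.35 ± 0.153, while H2-DMb2 (0.137 ± 0.0335) and Ciita (0.118 ± 0.0219) were lowest. From H2-DMa to Cd86 the SD ranges of neighbours overlapped, as did those of H2-DMb2 and Ciita. In Eumyc, H2-Eb1 (18.2 ± 2.49 CPM per kb) and H2-Ab1 (13.6 ± 2.25) came after Cd74, then H2-Aa (9.52 ± 2.23) and H2-DMa (8.86 ± 0.918). H2-DMb1 (3.91 ± 0.959), Cd86 (2.25 ± 0.514), Ciita (0.553 ± 0.136) and H2-DMb2 (0.533 ± 0.304) followed. From H2-Eb1 to H2-DMa the SD ranges of neighbours again overlapped, as did those of Ciita and H2-DMb2. By mean level, H2-DMa thus stood directly below Cd74 in WT and below all the classical chain genes in Eumyc. GENCODE M21 extends H2-DMa, H2-Ab1 and Ciita beyond the start given in the deposited table, which lowers their values per kilobase in both groups alike.

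The classical chains kept close proportions to Cd74 within a group. For each Cd74 count there were 0.240 to 0.251 H2-Ab1 counts in the WT libraries and 0.328 to 0.331 in the Eumyc libraries. H2-Eb1 held 0.215 to 0.279 counts per Cd74 count in WT and 0.326 to 0.346 in Eumyc. H2-Aa ranged from 0.233 to 0.396 in WT, where WT 2 was highest, and from 0.305 to 0.366 in Eumyc, so its groups overlapped. H2-DMa went the other way, from 0.492 to 0.688 per Cd74 count in WT to 0.275 to 0.312 in Eumyc. Ciita, at 0.0231 to 0.0518 in WT and 0.0423 to 0.0600 in Eumyc, overlapped between the groups.

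Genes of the cell types that could carry class II RNA into the sort were measured beside these genes. The counts of markers called here and below stand beside 25.7% of all tested genes called higher and 23.1% called lower. The labelled cell type was evident from its markers: all 10 NK markers were tested and summed to 12800 to 13320 CPM in WT and 11250 to 12690 CPM in Eumyc, with Gzma and Prf1 the most abundant in Eumyc, and 6 fell and 0 rose. Markers of monocytes and macrophages rose in 12 of 15 cases (median log2 fold change 3.23). They summed to 111.0 to 117.1 CPM in WT and to 1742, 676.3 and 891.7 CPM in Eumyc 1, 2 and 3. Csf1r, the receptor for macrophage colony-stimulating factor, went from 42.2 to 226.5 CPM in mean, and the lysozyme gene Lyz2 from 16.7 to 185.8 CPM.

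B cell markers rose in 9 of 12 tested cases (15 listed, median 1.78), and summed to 21.9 to 24.1 CPM in WT and to 67.3, 61.1 and 67.5 CPM in Eumyc 1, 2 and 3. Cd22, an inhibitory receptor, made up most of this sum at 13.2 and 38.8 CPM in mean, and the antigen receptor signalling chain gene Cd79b was at 2.20 and 5.26 CPM. Ms4a1, which encodes CD20, was at 0.449 and 0.573 CPM and was not called (adjusted p = 0.674). Immunoglobulin genes gave another order: 268 segments and constants together reached 188.2 to 200.1 CPM in WT and 494.0, 620.4 and 1161 CPM in Eumyc 1, 2 and 3. Most of the WT sum was the heavy chain gene Ighm, at 177.1, 184.2 and 180.6 CPM, which went from 180.6 to 400.7 CPM in mean. The light chain gene Igkc went from 0.806 to 86.0 CPM in mean and the J chain gene Jchain from 0.813 to 31.7 CPM.

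Dendritic cell markers were low. Of 10 tested (12 listed) 6 rose (median 1.92), and the list summed to 12.2 to 15.6 CPM in WT and 23.9, 22.3 and 19.9 CPM in Eumyc 1, 2 and 3. Batf3, a transcription factor gene, was at 2.38 and 9.11 CPM in mean, and Zbtb46, a factor of classical dendritic cells, was at 10.2 and 8.48 CPM and was not called (adjusted p = 0.345). Siglech, which marks plasmacytoid dendritic cells, had 0 counts in the WT libraries, which allows up to 0.0373 CPM over the group. T cell markers rose in 4 of 10 cases (median 0.37), with Trbc2 at 69.2 and 96.2 CPM and Cd3g at 14.9 and 64.8 CPM. Their sum was 225.4, 227.9 and 284.4 CPM in Eumyc 1, 2 and 3. The part of each of these cell types in the class II values was not tested.

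The libraries with the most monocyte RNA (Eumyc 1) and the most immunoglobulin RNA (Eumyc 3) differed, which allowed the order of the class II genes to be set beside both. Leaving aside H2-DMb2, whose Eumyc mean was under 1 CPM, 6 of 8 genes were highest in Eumyc 3 (Cd74, H2-Aa, H2-Ab1, H2-Eb1, H2-DMa and H2-DMb1) and 2 in Eumyc 1 (Ciita and Cd86). Of the 8, 7 were lowest in Eumyc 2 and Cd86 was lowest in Eumyc 3. The level in Eumyc 1 over that in Eumyc 3 was 0.922 for Cd74, 0.978 for H2-Aa, 0.927 for H2-Ab1 and 0.947 for H2-Eb1. The same ratio was 1.95 for the monocyte sum, 0.997 for the B cell marker sum, 0.425 for immunoglobulin, 0.792 for the T cell sum and 1.20 for the dendritic cell sum. It was 1.31 for Ciita and 1.57 for Cd86, between the dendritic cell and monocyte sums, and 1.78 for the scarce H2-DMb2. Most of the dendritic cell sum came from Zbtb46 and Batf3, whose orders were opposite. Zbtb46 was at 9.28, 10.1 and 6.05 CPM and Batf3 at 9.46, 7.90 and 9.96 CPM in Eumyc 1, 2 and 3.

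**Figure D2:**
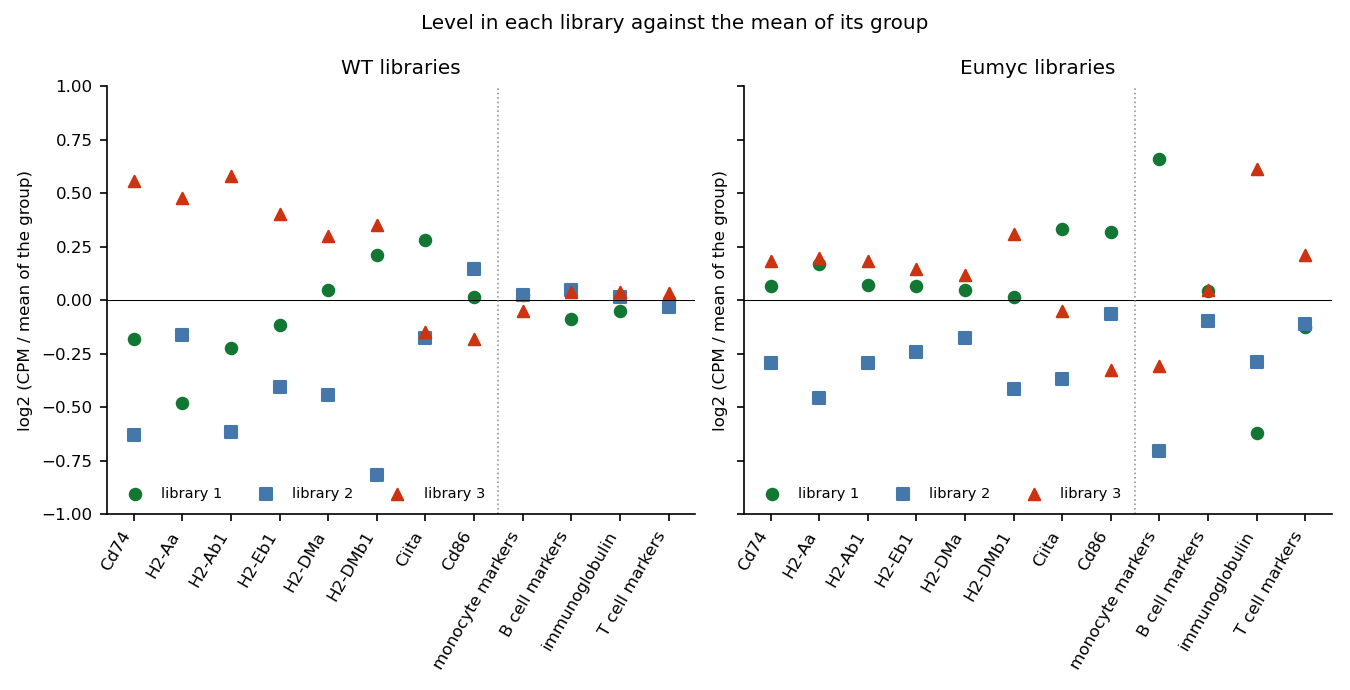
Log2 of the CPM in each library over the mean of its group (vertical axis), for 8 genes and, right of the dotted line, for summed marker genes of other cell types, in WT (left panel) and Eumyc (right panel). In Eumyc, Cd74 and the classical chains place libraries 1 and 3 together above library 2, while the monocyte sum is highest in library 1 and immunoglobulin in library 3. In WT, Cd74, the classical chains, H2-DMa and H2-DMb1 are highest in library 3, and the summed markers stay near the mean.

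Set against the summed markers, Cd74 was at 1.65, 1.42 and 1.78 times the B cell marker sum in Eumyc 1, 2 and 3. Against the monocyte sum it was at 0.0636, 0.128 and 0.135, so this ratio in Eumyc 1 was below that in Eumyc 2 and 3. In WT, Cd74 was at 1.21, 0.807 and 1.84 times the B cell marker sum and at 0.226, 0.166 and 0.397 of the monocyte sum. Ciita was at 0.0988, 0.0669 and 0.0754 of the B cell marker sum in Eumyc 1, 2 and 3 and at 0.0625, 0.0416 and 0.0426 in WT. Against the monocyte sum it was at 0.00382, 0.00604 and 0.00571 in Eumyc and 0.0117, 0.00855 and 0.00918 in WT. The highest of the 6 libraries was 2.38 times the lowest for Ciita against the B cell marker sum and 3.07 times against the monocyte sum.

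Within WT, 6 of the same 8 genes were highest in WT 3, the exceptions being Ciita and Cd86. Cd74 there was 2.27 times its level in WT 2, H2-Ab1 2.29 times and H2-Eb1 1.75 times. The marker sums of WT 3 did not stand apart in the same way, at 23.9 CPM for B cells and 111.0 CPM for monocytes. Single genes did, with Lyz2 at 28.3 CPM in WT 3 and 11.8 and 10.03 CPM in WT 1 and 2. Igkc was at 1.98 CPM in WT 3 against 0.14 and 0.30 CPM, and Jchain at 1.44 against 0.22 and 0.78 CPM. Ighm was highest in WT 2, at 184.2 CPM. Of the 3 B cell markers with a WT mean of at least 1 CPM, 1 was highest in each WT library. The proliferation gene Mki67 was also highest in WT 3, at 136.4 CPM against 31.8 and 25.6 CPM. In Eumyc 1, 2 and 3 it was at 582.7, 632.8 and 802.8 CPM, lowest in Eumyc 1, where Cd74 and the classical chains were lowest in Eumyc 2. Its part in the class II values was not tested. Without WT 3 all 9 genes remained called, with log2 fold changes of 2.22 for Cd74, 2.39 for H2-Aa, 2.66 for H2-Ab1 and 2.57 for H2-Eb1.

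The genes whose profile over the 6 libraries was nearest to the mean of Cd74, H2-Aa, H2-Ab1 and H2-Eb1 were sought among 8709 protein-coding genes with at least 10 CPM in Eumyc. Likeness was the root mean square difference in log2(CPM + 0.1) after each gene was centred on its own mean. The nearest were Tnfrsf21 (0.112), which encodes death receptor 6, E2f2 (0.122), a transcription factor of the cell cycle, the histone gene H2afx (0.147), Gmnn (0.152), whose product geminin restrains replication licensing, and Fbxo5 (0.158), an inhibitor of mitotic protein breakdown. The class II genes in that mean were themselves at 0.102 to 0.164 from it. E2f2 stood at 22.6, 17.2 and 42.8 CPM in WT and 112.8, 87.6 and 116.3 CPM in Eumyc, the same order of libraries as Cd74. The median distance was 0.502 over 9 B cell markers and 1.04 over 15 monocyte markers with at least 1 CPM in Eumyc. These medians cannot be set against the nearest distances, which were the smallest picked from 8709 genes. Nor can they be set against the class II genes in the mean, which help to set it. Candidates and markers were both filtered by level in the Eumyc group alone. Outside the mean, Ciita was at 0.375, below the B cell median. H2-DMb2 (0.584), H2-DMb1 (0.638), H2-DMa (0.682) and Cd86 (0.852) were above that median.

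**Figure D3:**
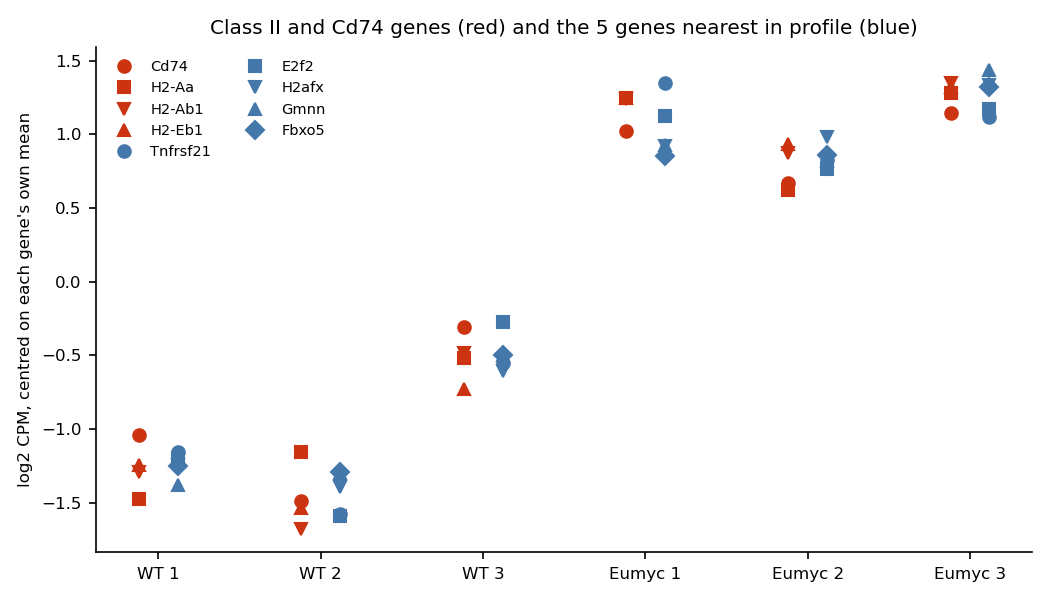
Log2 CPM of Cd74, H2-Aa, H2-Ab1 and H2-Eb1 (red) and of the 5 genes nearest to their mean profile (blue), each centred on its own mean over the 6 libraries on the horizontal axis. Both sets are higher in WT 3 than in WT 1 and 2, and in Eumyc both have their highest values, apart from Tnfrsf21, in library 3.

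Ciita, compared with 11142 genes of at least 1 CPM in Eumyc, was nearest to Ly86 (0.135), which encodes the MD-1 partner of a B cell and myeloid surface receptor. Next came Cyth3 (0.141), Stom (0.154), Smagp (0.172) and Lrp1 (0.194), an endocytic receptor. Ly86 stood at 1.88, 1.32 and 1.38 CPM in WT and 8.72, 4.19 and 6.70 CPM in Eumyc. The genes nearest to Cd86 were 5031439G07Rik (0.0876), Heg1 (0.0929), Arhgap39 (0.0956), the GTPase gene Rhob (0.103) and the adaptor gene Stap1 (0.114). Cd86 was at a distance of 0.742 from Ciita, and Cd74 at 0.423 from Ciita.

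A list of 8 genes held those for the factors through which Ciita acts and, as a relative, Rfx1. Of the 8, 1 rose and 3 fell, Rfx1 among those 3 (median log2 fold change -0.13). That share was near the 48.8% of all tested genes that were called. Rfxank and Rfxap, which encode subunits of the RFX complex on the X box, had log2 fold changes of -0.49 ± 0.12 and -0.36 ± 0.08. The third subunit, Rfx5, was at 34.0 and 33.7 CPM in mean (adjusted p = 0.958). Rfx1, another member of the RFX family, had a log2 fold change of -0.38 ± 0.08. Nfyb, a subunit of the Y box factor NF-Y, rose by 0.36 ± 0.07.

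Genes that prepare the groove, edit its peptides or remove class II from the surface rose in 7 of 13 tested cases and fell in 1 (median 1.04). Of all tested genes 25.7% were called higher and 23.1% lower. March1, a ubiquitin ligase that drives class II and CD86 off the surface, was at 2.17, 2.25 and 1.80 CPM in WT and 15.8, 6.87 and 10.7 CPM in Eumyc. It rose by 2.40 ± 0.30. Ctss, the protease that trims the invariant chain, went from 42.9 to 132.3 CPM in mean (1.63 ± 0.23), and the lysosomal thiol reductase gene Ifi30 from 6.95 to 21.2 CPM (1.63 ± 0.21). Cd63, a tetraspanin of late endosomes, went from 0.561 to 3.84 CPM (2.88 ± 0.36). Of the 13 genes 7 were highest in Eumyc 1, as the monocyte sum was, March1, Ctss and Ifi30 among them, and 5 were highest in Eumyc 3, Cd63 among them. Eumyc 2 was lowest for 10. The part of monocyte RNA in these values was not tested.

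The genes for H2-O, the inhibitor of H2-DM, were not called. H2-Oa was at 2.42, 1.298 and 1.44 CPM in WT and 1.89, 1.73 and 2.51 CPM in Eumyc (adjusted p = 0.513). H2-Ob was at 7.504, 6.84 and 11.2 CPM in WT and 6.09, 6.68 and 8.19 CPM in Eumyc (adjusted p = 0.315). The groups overlapped for both. The related beta chain gene H2-Eb2 was at 0.529 and 1.26 CPM in mean (adjusted p = 0.0865), and was called without Eumyc 2 (0.0394).

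Among 9 genes on the route from interferon-gamma to Ciita 1 rose and 3 fell (median -0.18), again a share near that of all tested genes. Ifngr2, the signalling chain of the receptor, was at 0.397, 0.893 and 0.899 CPM in WT and 15.7, 6.65 and 7.63 CPM in Eumyc (3.78 ± 0.43). Ifngr1, the ligand-binding chain, had a log2 fold change of -0.36 ± 0.09 from a mean of 664.6 CPM, and the kinase gene Jak1 one of -0.45 ± 0.10. Ifng itself was at 32.2, 39.9 and 44.4 CPM in WT and 38.4, 27.4 and 26.7 CPM in Eumyc (adjusted p = 0.126), and was called lower without Eumyc 1 (0.0207). Socs1, a brake on this route, was at 41.1, 35.4 and 74.5 CPM in WT and 66.3, 78.7 and 64.8 CPM in Eumyc (edgeR adjusted p = 0.131), with WT 3 inside the Eumyc range. It was called higher without WT 3 (0.000496), with limma-voom (0.0287) and with no filter (0.0486).

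All 8 genes of the B7 family, Cd40 and their receptors were called, 6 higher and 2 lower (median 0.97), where 48.8% of all tested genes were called. Against a 1.5-fold change 2 of the 8 were called, where 1260 of all 15458 tested genes were called higher and 568 lower. Cd80, the sister of Cd86, was at 0.289, 0.243 and 0.0599 CPM in WT and 1.13, 0.804 and 0.512 CPM in Eumyc (1.90 ± 0.53, adjusted p = 0.0174), with an adjusted p of 0.0597 without Eumyc 1. Cd80 and Cd86 shared their order of libraries in Eumyc. Ctla4, the inhibitory receptor for both, rose by 3.09 ± 0.35 to 1.78 CPM, and Cd28, the stimulatory one, was at 83.8 and 62.2 CPM (-0.43 ± 0.08). The ligand gene Pdcd1lg2 rose by 1.26 ± 0.27, and the receptor gene Icos was at 22.1 and 11.4 CPM (-0.96 ± 0.20).

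Cd40, a receptor on antigen-presenting cells, was at 2.95, 0.526 and 0.632 CPM in Eumyc and held few counts in WT. Its log2 fold change of 4.66 ± 1.11 (adjusted p = 0.00897) was 5.95 without WT 1, 3.87 without WT 2, 3.46 without Eumyc 1 and 4.06 with limma-voom. Cd274 was called at an adjusted p of 0.0499, and the call was lost without WT 1 (0.149), WT 2 (0.147), Eumyc 1 (0.137) or Eumyc 3 (0.0501). It was also lost with total counts (0.0681), upper quartile scaling (0.0692), a filter of 3 CPM (0.0520) and equal depth (0.0739).

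CD74 also serves as a surface receptor for the cytokine MIF, with CD44 and the chemokine receptors CXCR2 and CXCR4 as partners. Of 5 genes of this kind Mif rose by 1.02 ± 0.14, from 29.6 to 59.5 CPM, and Cxcr4 had a log2 fold change of -1.69 ± 0.20. Cd44 was at 249.5 and 245.0 CPM and was not called (adjusted p = 0.782).

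**Figure D4:**
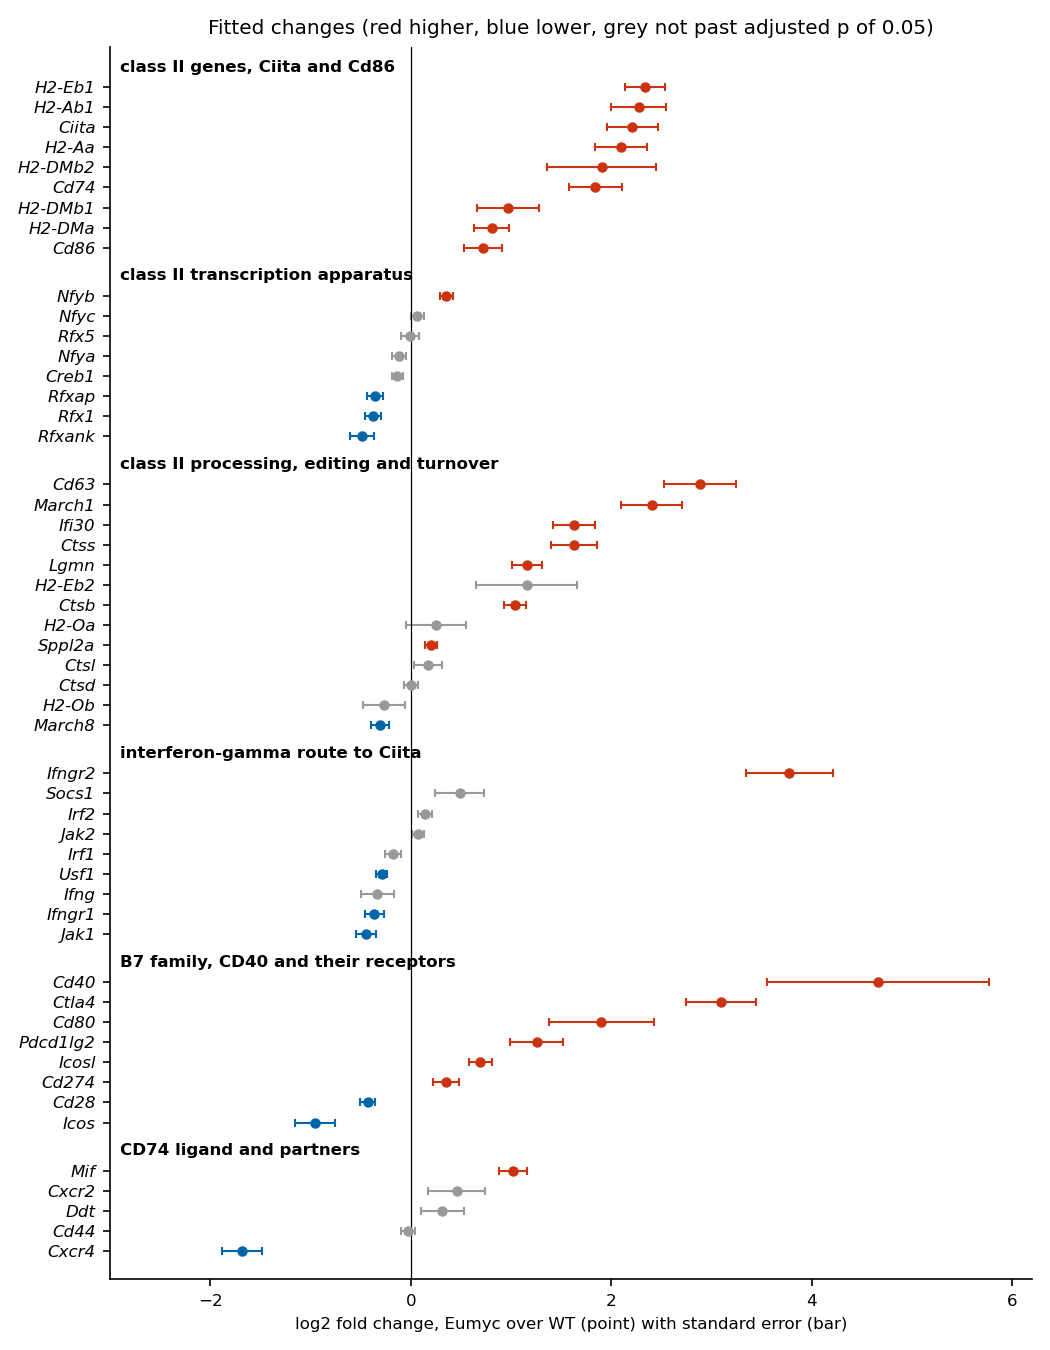
Log2 fold change of Eumyc over WT (horizontal axis, points) with its standard error (bars) for the 9 genes and the tested genes of 5 related lists, named on the vertical axis. All 9 genes of the first group are called higher (red), while the transcription apparatus lies between -0.49 and 0.36.

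Of the genes, 6 lie within 181.0 kb of chromosome 17, from 34135182 to 34316199, and 7 other tested genes lie between them. Where 25.7% of all tested genes were called higher, 4 of these 7 rose and 0 fell, with a median log2 fold change of 0.34. They were Psmb9, Tap1, Psmb8 and Tap2, which serve MHC class I and rose by 0.34 to 0.54, so the changes in the interval were not uniform. The interval was set after the values had been seen.

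The authors' deposited table of their own comparison lists 8 of the 9 genes, all higher in Eumyc. In the authors' deposited table the log2 fold changes run from 0.65 for Cd86 to 2.16 for H2-Eb1. All 8 are smaller than those found here, Cd74 for example at 1.44 against 1.84, and the cause was not tested. H2-DMb2, which reached at most 1.5 CPM in any library, is not listed, and whether its low level is the reason was not tested.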

How the data were processed

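The authors deposited whole-number counts per gene for 3 WT and 3 Eumyc libraries, and a table of their own comparison with log2 fold changes and p-values (its mean signal and score columns, also deposited, were not used). The submitters' processing notes name the aligner STAR (2.5.2), the counter HTSeq (0.6.1), the builds mm10 and GRCm38, and DESeq2 (1.10.1). For annotation release, strand setting and read filters, the sources used here give nothing. Libraries held 16407611 to 36534191 counts in WT and 44456157 to 66615602 in Eumyc, every Eumyc library being deeper than every WT library. PCR copies were not marked, so bounds cover counting error only. All library pairs of a group differed beyond sampling noise (lowest chi-square per degree of freedom 8.46).

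In R 4.3.3, edgeR 4.0.16 was run with filterByExpr (minimum count 10), TMM and a two-sided quasi-likelihood test of the group. Standard errors came from the F statistic. Exon lengths were unions of GENCODE M21 exons. The script was tested on simulated counts for the same 15458 genes, with 200 changed, before use. Alternatives were DESeq2 1.42.0, limma 3.58.1 voom, 3 scalings, 2 filters, a 1.5-fold threshold, equal depth, each library left out in turn, and a block for replicate number.

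The genes and lists were chosen with earlier results of these data known. From the interferon-gamma list, 1 gene is not reported here and was left out of its counts after the values had been seen. Named genes were the 9 above, up to 4 called genes per pathway list with the largest absolute log2 fold change and at least 1 CPM in the higher group (others where a level bears on a count), the 2 most abundant in Eumyc of each marker list, and the 5 nearest in profile. Immunoglobulin sums, Ighm, Igkc, Jchain and Mki67 were added after the values had been seen. Figures were drawn with matplotlib 3.10.9.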

Additional observations from a re-analysis of the deposited data

How the results depend on the processing

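All 9 genes were higher in Eumyc under every one of 16 alternatives in which they were tested. H2-DMb2 was not tested at equal depth or with the filter of 3 CPM in 3 libraries. The count called higher was 7 to 9 when single libraries were left out, 8 with limma-voom and 5 against a 1.5-fold change, and the count called lower was 0 in each, at 0 to 0 when single libraries were left out. Against a 1.5-fold change, calls were lost for H2-DMa (log2 fold change 0.81, adjusted p = 0.221), H2-DMb1 (0.97, 0.260), H2-DMb2 (1.91, 0.0947) and Cd86 (0.72, 0.435). H2-DMb2 was at 1.61 with limma-voom and H2-DMb1 at 0.86 at equal depth, both no longer called, and the cause was not tested. Leaving out single libraries gave log2 fold changes of 0.67 to 1.18 for H2-DMb1 and 1.42 to 2.26 for H2-DMb2.

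Called genes per list ranged, with single libraries left out, from 4 to 4 for the transcription apparatus, 6 to 9 for processing, 4 to 6 for the interferon-gamma route, 6 to 8 for the B7 family and 2 to 2 for the CD74 partners. Of all genes tested in these fits (15741 to 16208), 3252 to 4284 were called higher and 2616 to 3623 lower. Against a 1.5-fold change 0 genes of the transcription apparatus, 1 of the interferon-gamma route and 2 of the B7 family were called. Among all 15458 tested genes 1260 were then called higher and 568 lower. With the filter of 3 CPM 4 of the B7 family were called, for which fewer genes were tested. Among all 11077 genes tested with that filter 3277 were called higher and 3209 lower.

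In the labels, same-numbered libraries were linked only by their number. Their deviations from the group means correlated across genes at 0.0404, 0.0985 and 0.126, and each library correlated best with its own number. With the replicate block all 9 genes stayed called, Cd74 at 1.89 and H2-Eb1 at 2.34. Among all tested genes 4176 were then higher and 3684 lower, against 3973 and 3576 without it. The block lowered the standard error from 0.27 to 0.13 for Cd74 and from 0.28 to 0.15 for H2-Ab1, and raised it from 0.55 to 0.57 for H2-DMb2. The part of a shared replicate effect in the order of libraries was not tested. Depth limits genes with few WT counts, among them H2-DMb2, with 5, 11 and 4, Cd80, with 8, 9 and 1, Ctla4, with 5, 9 and 3, and Cd40, with 3, 0 and 1.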
